A study of Mus musculus with 4 samples.

Results

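The genes described here are 10 components of the transforming growth factor beta (TGF-β) pathway: the ligand Tgfb1, the receptors Tgfbr1, Tgfbr2 and Tgfbr3, the signal transducer Smad3, the inhibitory Smad7, the repressors Ski, Skil and Tgif1, and the feedback gene Pmepa1. They were chosen by gene name, and every array probe that carries 1 of these names was taken, which gave 20 probes among the 56310 with a usable spot on all arrays. The RNA was that of cultured mouse Treg (regulatory T) cells, hybridised to 4 single-colour Agilent arrays. The 2 tested arrays are from Junbfl/flCd4-Cre cells, which carry floxed Junb alleles and Cre recombinase driven by the Cd4 promoter, and the other 2 are from Junbfl/fl cells, called controls below, which carry the floxed alleles without Cre. The strain of both is C57BL/6. Both genotypes were cultured alike: naive CD4 T cells were sorted and grown for 3 days with 1 μg/ml of anti-CD3 fixed to the plate, 0.5 μg/ml of anti-CD28, 5 μg/ml each of anti-IFN-γ and anti-IL-4, and 5 ng/ml of recombinant human TGF-β1. All 4 arrays were thus from cells exposed to the ligand, and no array from cells without it was analysed here, so the values compare genotypes under TGF-β1 and do not measure the response to it.

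TGF-β is a secreted growth factor that drives naive CD4 T cells to express Foxp3 and take on a regulatory fate. The active dimer binds the type II receptor (Tgfbr2), which phosphorylates the type I receptor (Tgfbr1). That receptor phosphorylates Smad2 and Smad3, which enter the nucleus with Smad4 and act on target genes together with other transcription factors, AP-1 among them. JunB is a subunit of AP-1. The pathway restrains itself: Smad7, Skil and Pmepa1 are induced by TGF-β and dampen the signal, and Ski, Skil and Tgif1 hold Smad target genes silent.

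The array reads each gene through probes of 60 bases, and 5 of the 20 lie in coding sequence that can be shown. They are printed to show which part of the message each value below reports. Coordinates are on build mm9, as the files give them.
Tgfb1, chr7:26489877-26489936, plus strand, in the part encoding the mature growth factor: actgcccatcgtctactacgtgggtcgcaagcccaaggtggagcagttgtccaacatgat
Tgfb1, chr7:26477408-26477467, plus strand, in the part encoding the latency-associated peptide: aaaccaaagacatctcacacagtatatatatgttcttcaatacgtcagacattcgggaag
Tgfbr1, chr4:47419898-47423556, plus strand, across an intron, in the part encoding the kinase domain: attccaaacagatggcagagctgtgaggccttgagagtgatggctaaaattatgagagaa
Tgif1, chr17:71194438-71194497, minus strand, in the part encoding the protein: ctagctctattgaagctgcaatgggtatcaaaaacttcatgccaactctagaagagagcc
Pmepa1, chr2:173053319-173053378, minus strand, at the end of the reading frame, with the stop codon in capitals: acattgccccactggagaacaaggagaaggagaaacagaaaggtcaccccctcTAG
The first 56 of the 60 bases are shown for Pmepa1. Both Tgfb1 probes target endogenous mouse transcript, and the protein added to the medium contributes no RNA.

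The targeted gene was read first. The Junb probe in the coding region (chr8:87501881-87501940, mm9) gave processed signals of 4.11 and 1.47 for Junbfl/flCd4-Cre, below the scanner software's call of well above background, against 47.2 and 31.7 on the control arrays. It was at least 5.71-fold lower. This probe entered the fit only through the controls, where it was higher, so its limma adjusted p of 0.0396 is not read as support. A second Junb probe, at chr8:87500843-87500902, read 1053 and 10078 on the Junbfl/flCd4-Cre arrays and 9791 and 9072 on the controls, so Junbfl/flCd4-Cre array 2 was at the control level there, and no label says whether that probe lies in the floxed part. The remaining Junb probe was not well above background on any array. Of 7 T cell markers all 7 were well above background in both genotypes, with summed signals, as multiples of the array's 75th percentile, of 450 and 434 on the Junbfl/flCd4-Cre arrays and 558 and 550 on the controls. The 4 Treg markers Foxp3, Il2ra, Ctla4 and Ikzf2 summed to 29.0 and 49.9 on the Junbfl/flCd4-Cre arrays and to 96.3 and 94.0 on the controls. Most of each sum came from the Il2ra probe, which read 2279 and 3668.5, against 12848 and 12037, and was not called (limma adjusted p = 0.0669). Foxp3 alone read 298 and 584, against 1287 and 1301 (limma adjusted p = 0.135). The Treg markers did not move one way: Ikzf2 was called higher by 4.56 on the log2 scale and Ctla4 lower, at -1.47. The T cell markers Thy1 (-0.98) and Cd2 (-1.33) were called lower. The 5 myeloid markers summed to 59.7 and 30.9 against 25.2 and 16.6, and the 5 B cell markers to 5.53 and 3.72 against 2.93 and 0.888, with Ms4a1 called higher (3.18 log2). The extraction label names colon. Of 9 colon epithelium markers 3 and 2 were above background on both arrays of the Junbfl/flCd4-Cre and control genotype, Krt20, Vil1, Cdx1, Muc2 and Cdh1 on none, and of 6 stroma markers 2 and 1 were, with sums of 0.674 and 0.456 against 0.212 and 0.186. The stroma marker Dcn was called higher, with signals of 19.1 and 10.1 on the Junbfl/flCd4-Cre arrays and 2.11 and 2.02, not well above background, on the controls. The Dcn probe entered the fit only through the genotype in which it was higher, so its call is not read as support for a rise. The part of these marker differences in the results below was not tested. RNA was measured in bulk, so fewer cells of a type and less RNA per cell cannot be told apart.

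Of the TGF-β genes 2 passed the test, in opposite directions. Tgif1 was higher and Pmepa1 lower on the Junbfl/flCd4-Cre arrays. All 20 probes were well above background on all 4 arrays, so none entered through 1 genotype alone. A probe was called where limma's p, adjusted over all 33606 probes tested, was under 0.05. The 2 called are 2 of 20, where 6.78% of all probes were called, 5.53% as higher and 1.25% as lower. The genotypes did not overlap for 14 of the 20 probes (70%), against 72.2% of all probes tested. The log2 difference, Junbfl/flCd4-Cre minus control, was negative for 14 (70%) and positive for 6, where 50.7% of all probes were negative, and its median was -0.28, against -0.01 over all probes. Without adjustment, 7 of the 20 had a p under 0.05, 3 higher and 4 lower, as did 38.2% of all probes. Each ± is the standard error that limma gave the log2 difference (n = 2 arrays per genotype), and the number of arrays limits the precision.

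**Figure D1:**
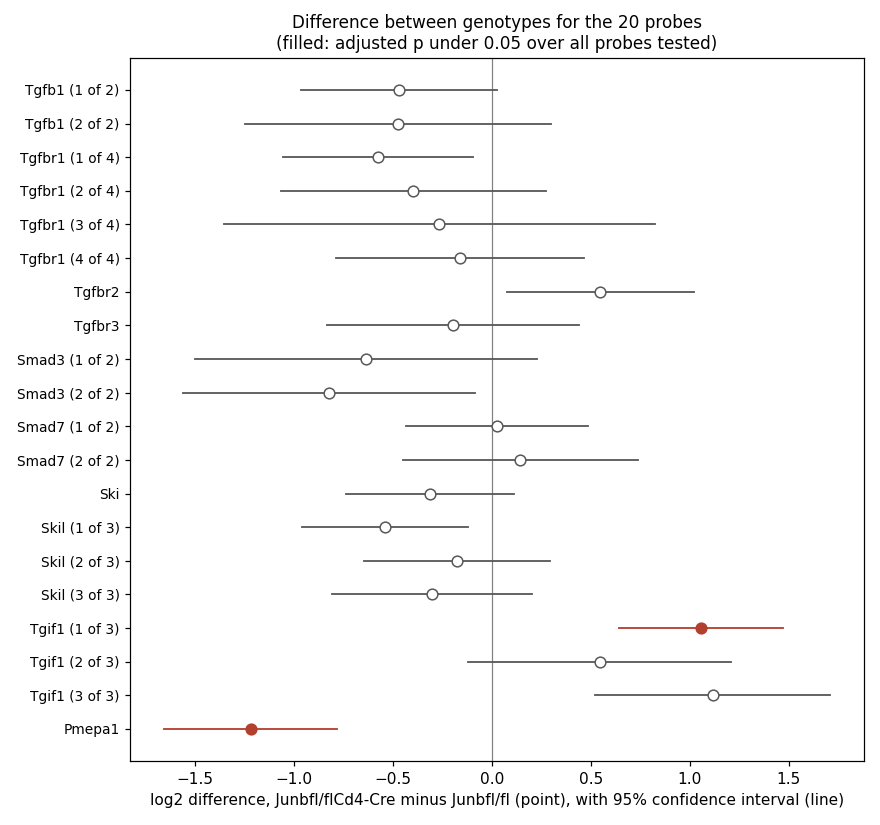
Log2 difference, Junbfl/flCd4-Cre minus Junbfl/fl, for each of the 20 probes (point) with its 95% confidence interval from limma (line, n = 2 arrays per genotype). Filled points passed an adjusted p of 0.05: 1 Tgif1 probe at 1.06 and the Pmepa1 probe at -1.22. Probes of a gene are numbered from the brightest.

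The ligand gene Tgfb1 was somewhat lower by both probes and passed by neither. The probe in the mature growth factor read 664 and 504 on the Junbfl/flCd4-Cre arrays and 1207 and 964 on the controls. After scaling the genotypes did not overlap, and the log2 difference was -0.47 ± 0.18 (95% interval -0.96 to 0.03, limma adjusted p = 0.143). The probe in the latency-associated peptide, 12410 bases upstream in the genome, read 102 and 65.9 against 191 and 123, and gave -0.47 ± 0.28 (adjusted p = 0.274). Here Junbfl/flCd4-Cre array 1 and control array 2 lay at the same scaled level, -0.23 log2 each, so the genotypes touched. The 2 probes therefore gave the same estimate from separate parts of the message, and neither interval leaves out 0.

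Among the receptors, Tgfbr2 pointed up and Tgfbr1 down, neither past the threshold. Tgfbr2 encodes the type II receptor, which binds the ligand. Its single probe (the files give only chr9:115996798-115996807) read 3624 and 2582 on the Junbfl/flCd4-Cre arrays and 2929 and 2708 on the controls. After scaling, both Junbfl/flCd4-Cre arrays lay above both controls, at 4.92 and 4.68 against 4.28 and 4.23 log2, a log2 difference of 0.55 ± 0.17 (interval 0.079 to 1.02, limma adjusted p = 0.104). With median scaling it was 0.017.

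Tgfbr1, the type I receptor kinase, had 4 probes, all with negative differences. The brightest, near the end of the transcript (chr4:47427421-47427480), read 1015 and 724 on the Junbfl/flCd4-Cre arrays and 1685 and 1754 on the controls, a log2 difference of -0.57 ± 0.17 (limma adjusted p = 0.101) with no overlap. The kinase probe read 152 and 89.9 against 196 and 218, and gave -0.39 ± 0.24 (adjusted p = 0.286). Scaled signals were 0.35 and -0.17 against 0.38 and 0.59 log2, so Junbfl/flCd4-Cre array 1 lay just under control array 1 and array 2 well below both controls. The other 2 probes, at chr4:47395833-47395892 and chr4:47374114-47374173, are listed under transcripts of their own in the array design. They read 62.5 and 25.4 against 65.1 and 63.7, and 20.3 and 12.3 against 23.2 and 24.4. In both, the 2 Junbfl/flCd4-Cre arrays fell on either side of the controls after scaling, and the differences of -0.26 ± 0.40 and -0.16 ± 0.23 (limma adjusted p = 0.639 and 0.615) turned to 0.26 and 0.078 without Junbfl/flCd4-Cre array 2. Tgfbr3, the co-receptor betaglycan that presents ligand to Tgfbr2, read 348 and 237 against 521 and 376 (chr5:107535818-107535877). Its genotypes overlapped, with a log2 difference of -0.19 ± 0.23 (interval -0.83 to 0.44, adjusted p = 0.554) that turned to 0.0099 without control array 1 and to 0.027 with normexp background and quantile normalization.

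**Figure D2:**
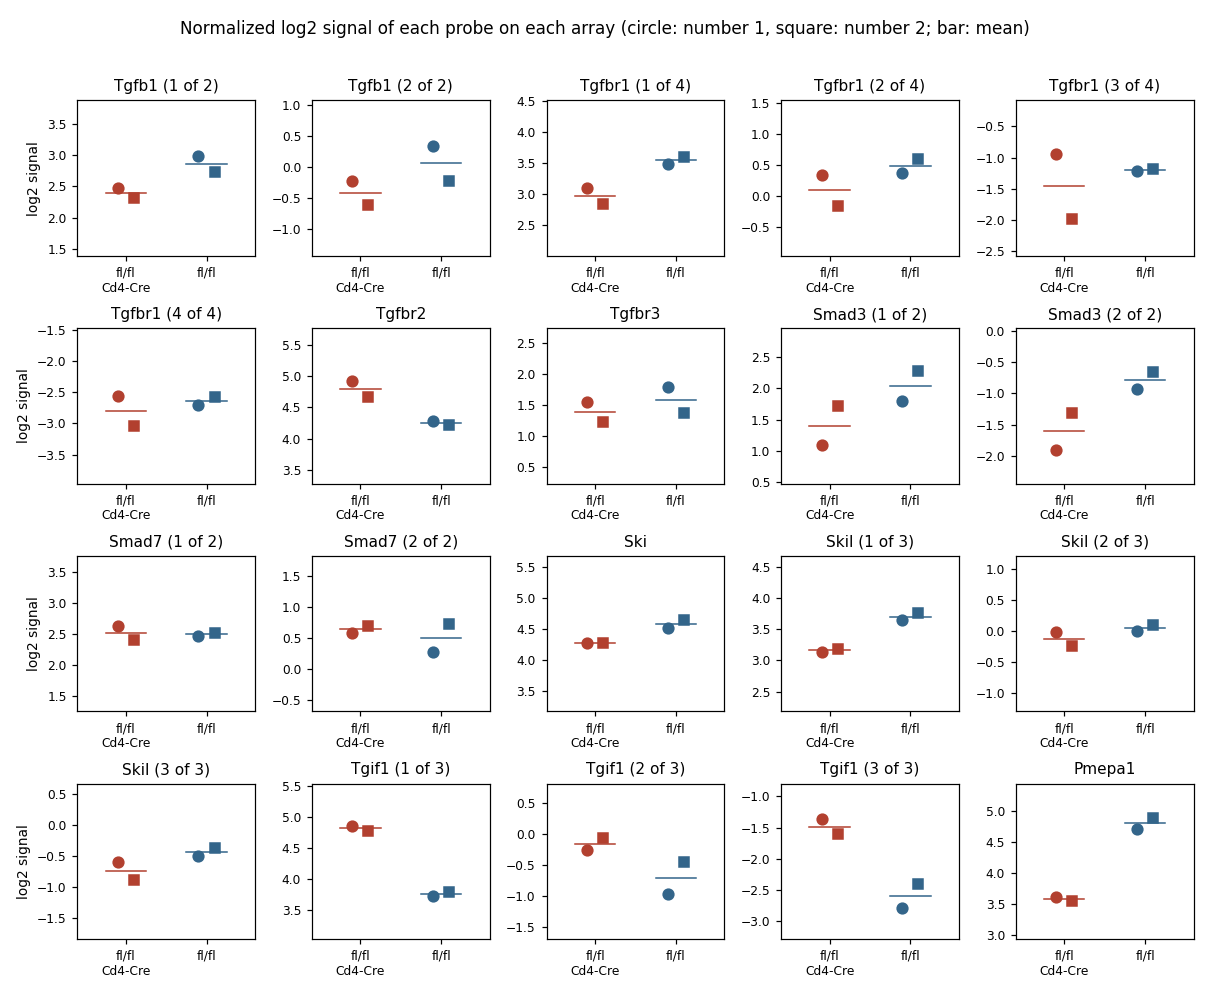
Scaled log2 signal (log2 processed signal minus the array's 75th percentile) of every probe on every array, with Junbfl/flCd4-Cre left and Junbfl/fl right in each panel, circles for array number 1, squares for number 2 and a bar at the mean. Each panel spans 2.5 log2 units around its own centre, so distances compare across panels but levels do not. The first Tgif1 panel and the Pmepa1 panel show pairs of arrays that lie close together within a genotype and far apart between genotypes.

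Smad3 carries the receptor's signal to the nucleus, and both of its probes were lower without passing. The brighter (chr9:63494574-63494633) read 254 and 332 on the Junbfl/flCd4-Cre arrays and 524 and 704 on the controls, a log2 difference of -0.64 ± 0.31 (interval -1.50 to 0.23, limma adjusted p = 0.209). The other, 498 bases away, read 31.9 and 40.5 against 79.6 and 92.2, and gave -0.82 ± 0.27 (adjusted p = 0.11). The genotypes did not overlap by either probe, but the margin was narrow for the brighter: scaled signals were 1.09 and 1.72 log2 against 1.79 and 2.28. The lower array was number 1 in both genotypes, so the same-numbered differences, -0.70 and -0.57, were closer to each other than the arrays within a genotype were.

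Smad7 encodes the inhibitory Smad that blocks and degrades the type I receptor. Its scaled level was close in the 2 genotypes, and the sign of the small difference depended on the scaling. Its brighter probe (chr18:75555371-75555430) read 739 and 536 on the Junbfl/flCd4-Cre arrays and 838 and 827 on the controls, which after scaling left the controls between the Junbfl/flCd4-Cre arrays and a log2 difference of 0.03 ± 0.17 (interval -0.43 to 0.48, limma adjusted p = 0.917). The second (chr18:75553805-75553864) read 179 and 164 against 183 and 238, with a difference of 0.14 ± 0.22 (interval -0.45 to 0.74, adjusted p = 0.636). With median scaling the differences were -0.51 and -0.39. Intervals of this width do not show that the level is the same.

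Ski and Skil are related nuclear repressors that bind Smad complexes and recruit corepressors. Ski, by its single probe (chr4:154528495-154528554), read 2298 and 1948 on the Junbfl/flCd4-Cre arrays and 3447 and 3627 on the controls. The scaled signals of the Junbfl/flCd4-Cre arrays were equal to 2 decimals (4.27 log2 each) and lay below both controls (4.51 and 4.65), and the difference of -0.31 ± 0.15 did not pass (limma adjusted p = 0.21) and was 0.020 with quantile normalization. Skil, which encodes SnoN, had 3 probes, all lower on both Junbfl/flCd4-Cre arrays than on either control after scaling. The brightest, at the far end of the transcript (chr3:31021022-31021081), read 1048 and 920 against 1893 and 1956, a log2 difference of -0.54 ± 0.15 (adjusted p = 0.0916). The others lie 732 bases apart near the start of the gene. The one at chr3:30995904-30995963 read 118 and 84.9 against 151 and 154, with a difference of -0.18 ± 0.17 (adjusted p = 0.469), and its scaled signals for array 1 of each genotype differed by only 0.012. The one at chr3:30996695-30996754 read 79.4 and 54.9 against 107 and 112, with a difference of -0.30 ± 0.18 (adjusted p = 0.285).

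Tgif1, a homeodomain repressor that competes with coactivators for Smad2 and Smad3, was the gene that rose. The brightest probe lies at the end of the transcript (chr17:71193629-71193688). It read 3436 and 2767 on the Junbfl/flCd4-Cre arrays and 1995 and 2002 on the controls. The arrays of a genotype nearly coincided after scaling, at 4.85 and 4.78 against 3.72 and 3.79 log2, and the difference was 1.06 ± 0.15, a 2.08-fold rise (interval 0.64 to 1.47, limma adjusted p = 0.0412). The coding probe printed above, 750 bases away, read 99.5 and 95.8 against 76.9 and 105, and gave 0.55 ± 0.24 (interval -0.12 to 1.21, adjusted p = 0.176). The third probe, 2125 bases further upstream at chr17:71196622-71196681, is assigned to a separate Ensembl transcript and read 46.2 and 33.3 against 21.8 and 27.3. It gave 1.12 ± 0.22 (interval 0.52 to 1.71, adjusted p = 0.0605). The genotypes did not overlap by any of the 3 probes, which was also so for 72.2% of all probes tested. All 3 differences were positive under each of the 4 scalings tried, though that of the coding probe was 0.014 with median scaling. The call itself was narrower: for the brightest probe the adjusted p was 0.0503 with quantile normalization and 0.1 with median scaling, where the difference was 0.52. In the authors' deposited table the accession of the brightest probe stood at 1.27 with an adjusted p of 0.042.

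The RefSeq promoter table (GRCm38.p6) lists 11 windows for 6 of the 10 genes, 5 of them at start sites of Tgif1. Pmepa1, Tgfbr3 and Skil have no window there, so the counts below do not cover them. The 250 bases before the outermost Tgif1 start (chr17:70853533-70853782, minus strand) are shown because Tgif1 is the member that rose, with the short Smad-binding motif CAGACA, found once, in capitals.
Tgif1: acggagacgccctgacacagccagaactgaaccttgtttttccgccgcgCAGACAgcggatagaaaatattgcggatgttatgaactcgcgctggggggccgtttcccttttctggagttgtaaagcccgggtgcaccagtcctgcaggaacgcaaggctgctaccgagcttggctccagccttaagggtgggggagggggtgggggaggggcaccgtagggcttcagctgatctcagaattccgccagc
Searched on both strands, CAGACA was present in 3 of the 11 windows, of Tgfbr1 and Tgif1, and in 17.1% of all 32851 windows of this length. The AP-1 motif TGANTCA was in 0 of the 11 and in 6.75% of all windows, and the related TGACGTCA in 0 and in 1.55%. A match or its absence in these letters says nothing of where JunB or Smads bind.

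Pmepa1 is a TGF-β-induced membrane protein that takes Smad2 and Smad3 away from the receptor. It was the gene that fell. Its single probe, which reaches the stop codon, read 1457 and 1185 on the Junbfl/flCd4-Cre arrays and 3964 and 4274 on the controls. Scaled signals were 3.61 and 3.55 against 4.71 and 4.88 log2, so each genotype's arrays lay far closer to each other than to the other genotype. The log2 difference was -1.22 ± 0.16 (interval -1.66 to -0.78, limma adjusted p = 0.0372), 2.32-fold lower. It was negative under each of the 4 scalings tried, between -1.75 and -0.88, and was not called with quantile normalization (adjusted p = 0.0819) or with normexp background and quantile normalization (adjusted p = 0.0667). The authors' deposited table gave -0.90 with an adjusted p of 0.0638.

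Because the scaling of the arrays sets where 0 lies, ratios of 2 genes on the same array were also taken, which no single factor per array can alter. The pairs were chosen after the values were seen, and with 2 arrays against 2 the exact permutation test cannot go below p = 0.333, two-sided. The log2 ratio of the brightest Tgif1 probe to the Pmepa1 probe was 1.24 and 1.22 on the Junbfl/flCd4-Cre arrays and -0.99 and -1.09 on the controls, a shift of 2.27 in favour of Tgif1 (4.83-fold). The ratio of the Tgfbr2 probe to the brightest Tgfbr1 probe was 1.84 and 1.83 against 0.80 and 0.63, a shift of 1.12 (2.18-fold). Neither receptor was called on its own, and this pair was taken because its members pointed opposite ways, so the shift is a description. The ratio of Smad7 to Smad3, by the brightest probes, was 1.54 and 0.69 against 0.68 and 0.23, a shift of 0.66. There the groups were separated by only a small margin. The ratio of Skil to Ski, the related repressors, was -1.13 and -1.08 against -0.86 and -0.89, the smallest of the 5 shifts at -0.23. That of Tgif1 to Skil was 1.71 and 1.59 against 0.076 and 0.033, a 3.02-fold shift. Within an array such ratios show unequal change and do not say which of the 2 genes moved.

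**Figure D3:**
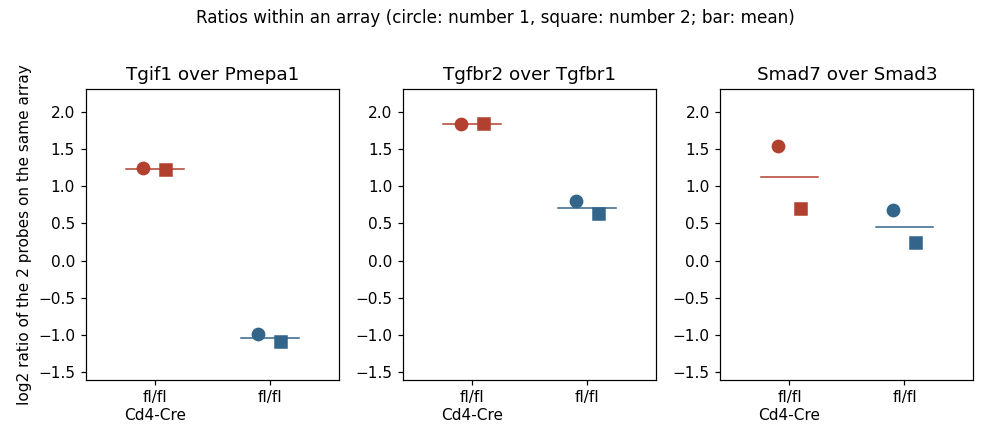
Log2 ratio of 2 probes on the same array for Tgif1 over Pmepa1, Tgfbr2 over Tgfbr1 and Smad7 over Smad3, with Junbfl/flCd4-Cre left and Junbfl/fl right, circles for array number 1, squares for number 2 and a bar at the mean. The first 2 ratios are nearly identical on the 2 Junbfl/flCd4-Cre arrays, and Smad7 over Smad3 spreads from 0.69 to 1.54 there.

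Differences on these arrays moved with brightness, and that bears on how the smaller ones read. Over all probes tested, the median log2 difference was 0.68 among the dimmest and -0.35 among the brightest of 5 equal brightness classes, and 78.3% of the brightest probes were negative. Of the TGF-β probes 8 were in the brightest class and 0 in the dimmest. The 8 had a median of -0.39, close to the -0.35 of all probes as bright, and 1.58% of the probes in that class were called higher and 1.43% lower. The differences of Tgfb1, Tgfbr1, Ski and Skil in that class, from -0.57 to -0.31, lay near that median. Smad7 at 0.03, Tgfbr2 at 0.55 and Tgif1 at 1.06 lay above it and Pmepa1 at -1.22 below it. The classes in between held 2, 6 and 4 of the TGF-β probes, from dim to bright. Those probes had medians of 0.48, -0.28 and -0.29, against 0.27, 0.007 and -0.23 over all probes of the same classes. Dividing by the median in place of the 75th percentile moved the median of all probes by -0.53, and 9 of the 20 TGF-β probes were then called lower and 0 higher, where 38.6% of all probes were called. Of all probes, 1.93% were called with quantile normalization, 1.01% with normexp background and quantile normalization, and 15.6% with an intensity trend in the fit, where the TGF-β probes called numbered 0, 1 and 4. With 1 probe per gene, 8.46% of genes and 2 of the 10 TGF-β genes were called.

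**Figure D4:**
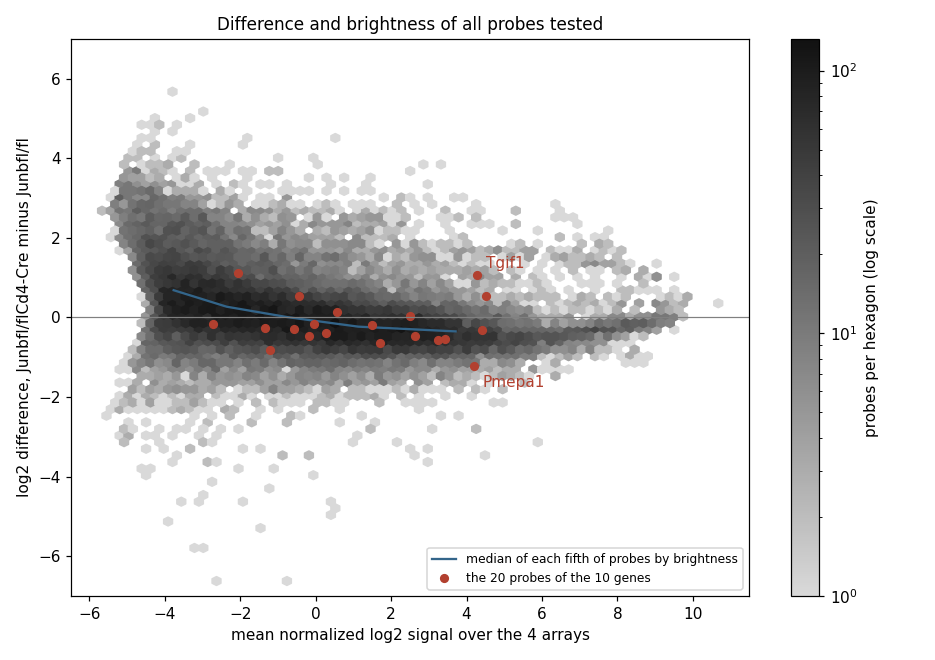
Log2 difference, Junbfl/flCd4-Cre minus Junbfl/fl, against mean scaled log2 signal for all 33606 probes tested (grey hexagons, darker for more probes on a log scale), with the median of each of the 5 brightness classes (line) and the 20 TGF-β pathway probes (points). The median line runs from 0.68 in the dimmest class to -0.35 in the brightest, and Tgif1 and Pmepa1 lie on opposite sides of it.

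**Figure D5:**
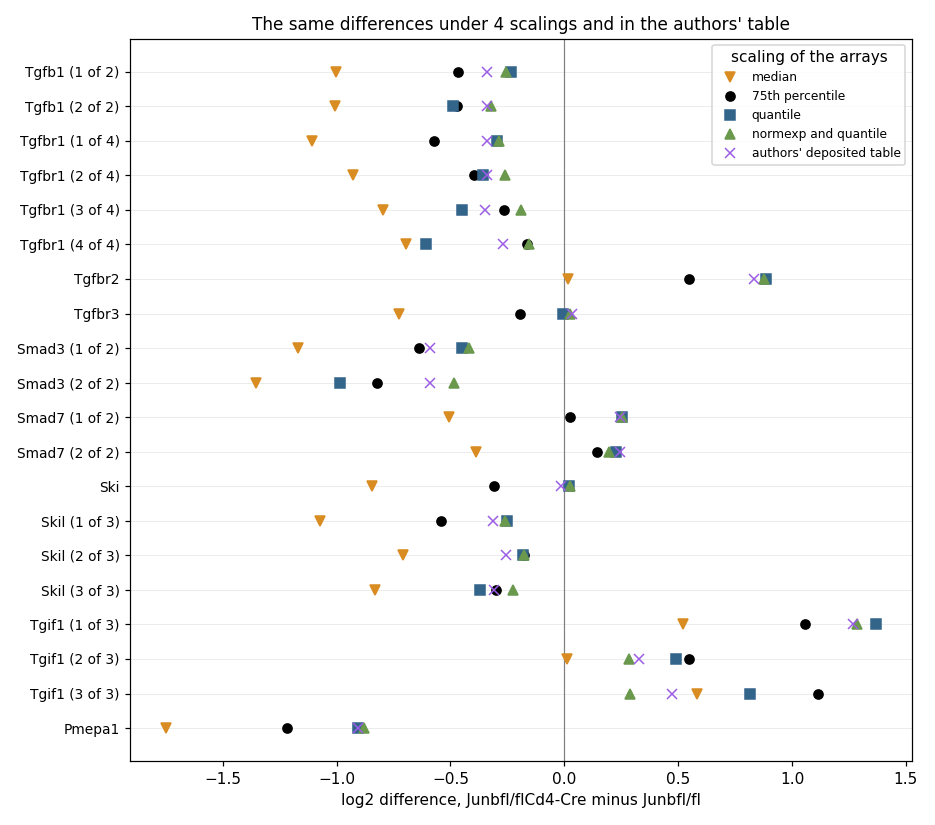
Log2 difference, Junbfl/flCd4-Cre minus Junbfl/fl, for each of the 20 probes when arrays were scaled to the median, to the 75th percentile, by quantiles, or by quantiles after normexp background correction, and as given in the authors' deposited table for the probe's accession. Tgif1 stays right of 0 and Pmepa1 left of it under all of them, whereas Smad7, Ski and Tgfbr3 lie on either side of 0 depending on the scaling.

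The wider pathway was measured through 49 other genes of ligand activation, receptors, Smads and their regulators, and TGF-β-responsive genes. Of these, 41 were measured, 3 had a probe that rose and 2 had a probe that fell, which is 12.2% of them, where 9.49% of all genes had at least 1 called probe, 7.91% a higher and 1.6% a lower one. Nothing is read from that share, since Tgfb2 and Ltbp1, 2 of the 3 that rose, passed the background filter only through the genotype in which they were higher. The 83 probes of these genes had a median log2 difference of -0.09, against -0.01 over all probes. None of the 10 measured receptors and co-receptors and none of the 14 measured Smads and Smad regulators was called.

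Of 10 measured genes for ligands, latency and activation, Tgfb2 and Ltbp1 had a probe called higher and Furin a probe called lower. Tgfb2, a second TGF-β ligand, read 22.8 and 14.4 on the Junbfl/flCd4-Cre arrays against 5.47 and 2.71, not well above background, on the controls, and was at least 4.09-fold higher (limma adjusted p = 0.043). Its other probe was well above background on 1 array and was not tested. Ltbp1, which binds latent TGF-β to the matrix, read 14.8 and 14.2 against 5.25 and 4.96, also not well above background on the controls, at least 3.35-fold higher (adjusted p = 0.0276). A second tested Ltbp1 probe read 19.9 and 72.2 against 7.09 and 21.2 and was not called (2.06 ± 0.94, adjusted p = 0.186), and 2 more were not tested. The called Tgfb2 and Ltbp1 probes are dim and entered the fit only through the genotype in which they were higher. Their adjusted p-values are therefore not read as support for a rise. With normexp background and quantile normalization they gave 0.31 and 0.19 and were not called. Furin, the protease that cleaves the TGF-β precursor, read 1730 and 1627 against 5871 and 5135. It fell by 1.28 ± 0.16 on the log2 scale (limma adjusted p = 0.0356). A second Furin probe, listed under a separate Ensembl transcript, read 88304 and 73937 against 84948 and 81241. That probe gave 0.39 ± 0.15 (adjusted p = 0.137). Whether the 2 Furin probes report the same message was not tested.

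Of 7 measured TGF-β-responsive genes, Itgae rose and Id2 fell. Itgae, the CD103 integrin chain that TGF-β induces on T cells, read 502 and 501 on the Junbfl/flCd4-Cre arrays against 46.3 and 94.1 (3.36 ± 0.41, limma adjusted p = 0.0351), and its second probe gave 2.78 ± 0.36 (adjusted p = 0.037). Id2, an inhibitor of basic helix-loop-helix factors, read 273 and 194 against 762 and 991 (-1.48 ± 0.23, adjusted p = 0.0464), and its second probe gave 0.34 ± 0.59 (adjusted p = 0.687). With quantile normalization the 5 genes kept these directions, and only the brighter Itgae probe passed (adjusted p = 0.0485, and 0.0542 to 0.0879 for Tgfb2, Ltbp1, Furin and Id2). The genes nearest the threshold without passing were Acvr1, Eng, Itgav and Ltbp4. The type I receptor Acvr1 gave -1.26 (limma adjusted p = 0.0504) and the co-receptor Eng -1.14 (adjusted p = 0.056). The integrin chain Itgav, which activates latent TGF-β, gave -0.79 (adjusted p = 0.0618). The latent TGF-β-binding protein Ltbp4 gave 0.78 (adjusted p = 0.0646), but its second tested probe pointed down, at -3.09 ± 2.40 (adjusted p = 0.378). Other tested probes gave -1.21 for Acvr1 and -0.76 and -0.09 for Itgav.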

How the data were processed

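Per the file headers, the authors extracted the scans with Agilent Feature Extraction 11.5.1.1. Its deposited columns hold a processed intensity per spot, corrected for background within that array only, besides mean and background intensities and quality flags. The authors' deposited table holds log2 signals, log2 differences, p-values and the t and B scores that limma names, per accession; how its log2 signals were normalized is not stated, and where an accession has several probes its value is not that of 1 probe. All 4 arrays lie on 1 slide and share 1 scan. Groups come from the sample titles. Separate mice or cultures behind the 2 arrays are not stated in any label, so the spread behind each p-value is that among arrays and could be technical only.

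Control spots and spots with the uneven or outlier flag (108 to 215 per array) were left out, spots of a probe were averaged, and 56310 of 56605 probes had a usable spot on every array. No non-control spot was saturated. Processed intensities were put on the log2 scale and scaled by subtracting the 75th percentile of each array (119 and 101 on the Junbfl/flCd4-Cre arrays, 151 and 145 on the controls). Well above background were 66.3% and 61.0% of spots on the Junbfl/flCd4-Cre arrays and 60.5% and 59.3% on the controls. The fit took the 33606 probes for which 1 or both genotypes had 2 arrays well above background. It used limma 3.58.1 (R 4.3.3; lmFit and eBayes, no covariate), with Benjamini-Hochberg adjustment over all of them. The code of the fit was run on simulated data with known changes. The simulated noise was independent and of equal size for all probes, so that run says nothing of how the fit performs on these arrays. For a genotype without a signal well above background, the dimmest signal with that call stood in where it was higher, and the fold is a bound ("at least"). Genes outside the 10 were named from the files, updated through RefSeq tables of GRCm38.p6. The text names every probe of the 10 genes, and by gene Junb, the pathway genes with a called probe and the 4 uncalled ones with the smallest p. The members and gene lists were chosen with earlier results of these data known. Alternatives were quantile and median scaling, normexp background (offset 50), other filters, an intensity trend, 1 probe per gene, the replicate block and leaving out each array.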

Additional observations from a re-analysis of the deposited data

How the results depend on the processing

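Other filters, the intensity trend and the replicate block leave each log2 difference as it is, so only the side of the threshold could change. Of the 20 probes, 20 kept that side with only probes above background on all 4 arrays. With no filter, with the intensity trend and with the replicate block 18 kept it. Direction and side were both kept by 18 in the authors' deposited table and by 9 with median scaling. Both were kept by 17 with quantile normalization and with normexp background followed by quantile normalization. Member probes called higher and lower numbered 1 and 1 in the fit reported. They were 0 and 0 with quantile normalization, 0 and 9 with median scaling, 1 and 0 with normexp background, 0 and 0 with no filter, and 2 and 2 with the intensity trend. Leaving out any 1 array, which leaves a genotype with a single array assumed to vary like the other genotype, gave 0 of either. All probes called numbered 2277 (81.6% of them higher), against 650 with quantile normalization (72.8% higher), 12972 with median scaling (18.5% higher), 340 with normexp background (73.2% higher), 1377 with all 4 arrays above background, 5239 with the intensity trend (53.3% higher), and 0 with no filter and without any 1 array, where 7315 to 12028 had an unadjusted p under 0.05. The replicate block called 8522 probes, 2 members higher and 2 lower, the added ones being a Tgif1 probe (adjusted p = 0.0408) and a Smad3 probe (0.0453). The numbers follow the arrays' rows on the slide, and no label says that they pair cultures. With 2 arrays per genotype the deviations of the 2 numbers are bound to give 1 correlation, 0.45. With 1 probe per gene the called pathway genes other than the members were 4, against 5. Itgae, Id2 and Tgfb2 were among the 4. The called Furin and Ltbp1 probes are not the brightest of their genes, so they did not enter, and these genes were no longer called. The remaining gene of the 4 was not among the 5.

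Directions that turned were of probes not called. Smad7 gave -0.51 and -0.39 with median scaling, its brighter probe -0.085 to 0.14 and its other -0.075 to 0.37 when 1 array was left out, negative without Junbfl/flCd4-Cre array 1 and without control array 1. Ski gave 0.020 with quantile normalization and 0.027 with normexp background. Tgfbr3 gave 0.027 with normexp background, 0.034 in the authors' deposited table and -0.40 to 0.0099 when 1 array was left out. The 2 dimmest Tgfbr1 probes ranged from -0.79 to 0.26 and from -0.40 to 0.078, positive without Junbfl/flCd4-Cre array 2. Without 1 array the Tgif1 probe ranged from 1.02 to 1.09 (adjusted p 0.0948 to 0.157) and Pmepa1 from -1.30 to -1.13 (adjusted p 0.093 to 0.147). The cause of these changes was not tested. A slide block could not be fitted, since all arrays share 1 slide. With 2 arrays per genotype, differences below the stated intervals cannot be resolved.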
